A study of Mus musculus with 6 samples.

Results

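H3K4me3 was measured by ChIP-seq in Scid.adh.2C2, a mouse line with the features of T cell progenitors at the DN3 stage, and the peak list of this line is described here across the promoters of protein-coding genes. The study developed a tool that assigns distal regulatory elements to genes through chromatin contacts and used H3K4me3 to mark promoters in lymphoid progenitors. Scid.adh.2C2 is a subclone of a tumour line that arose in a CB17 mouse with the scid allele of Prkdc, so that all its values come from 1 clone, and it was grown without further treatment. The comparison line, called the pre-B line here, is a mouse B cell progenitor line transformed with the Abelson virus, also untreated. Each line had 2 H3K4me3 libraries, made with the same antibody, and 1 input library. For each line the replicates were combined into 1 list of peaks that had passed a test of reproducibility between them. All 15513 peaks of the Scid.adh.2C2 list were taken, of 35117 in both lists, of which 19604 belonged to the pre-B line. A gene was called marked when a peak overlapped the 2500 bp on either side of any of its annotated transcription start sites (TSSs). Genes on the lineage-restricted lists of the study were left out unless they are named as markers, and 21503 of 21951 protein-coding genes remained. Of these, 9752 were marked (45.4%, 95% Wilson interval 44.7% to 46.0%), and 10304 were marked in the pre-B line (47.9%). Unmarked means only that the list holds no peak there above the thresholds of the authors. The list gives no read counts, so that the depth is unknown.

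H3K4me3 is placed on nucleosomes around the start sites of active and poised genes by the SET1 and MLL methyltransferase complexes. These complexes hold subunits that bind unmethylated CpG dinucleotides, and CpG islands are the usual site of the mark. The height of a peak is often used as a measure of how many cells or alleles carry the mark, and broad domains are known from genes that define the identity of a cell type.

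The promoters printed here carry the contrasts described in the results, and each runs from 250 bp before to 50 bp after a start site of RefSeq on GRCm38.p6, 5′ to 3′ on the strand of the gene. All 8 were found in the RefSeq promoter table. In the first set the capitals mark each CG, because CpG content and marking went together across the genome. Eif4ebp2 (chr10:61452620-61452919, minus strand) had the tallest promoter peak and 34 CG, and Nrarp (chr2:25180508-25180807, plus strand) had 1 of the widest and 21 CG. Sash3 (chrX:48146186-48146485, plus strand) was marked with only 3 CG. Orc6 (chr8:85299382-85299681, plus strand) was unmarked with 30 CG, and Hoxa13 (chr6:52260831-52261130, minus strand) was unmarked with 45 CG. Alb (chr5:90460620-90460919, plus strand) was unmarked with 3 CG.
Eif4ebp2: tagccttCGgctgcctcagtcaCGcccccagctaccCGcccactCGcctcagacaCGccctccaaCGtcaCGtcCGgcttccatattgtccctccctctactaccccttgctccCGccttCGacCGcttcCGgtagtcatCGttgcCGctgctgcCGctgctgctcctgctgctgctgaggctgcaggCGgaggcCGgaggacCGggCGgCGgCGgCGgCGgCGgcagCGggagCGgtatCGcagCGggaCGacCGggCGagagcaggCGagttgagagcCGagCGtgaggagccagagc
Nrarp: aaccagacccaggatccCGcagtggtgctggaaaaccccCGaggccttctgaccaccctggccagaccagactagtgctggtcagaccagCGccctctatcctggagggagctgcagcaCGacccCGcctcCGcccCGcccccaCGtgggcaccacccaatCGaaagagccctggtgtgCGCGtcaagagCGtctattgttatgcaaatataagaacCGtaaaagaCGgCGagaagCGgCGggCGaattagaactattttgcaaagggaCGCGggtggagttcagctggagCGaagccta
Sash3: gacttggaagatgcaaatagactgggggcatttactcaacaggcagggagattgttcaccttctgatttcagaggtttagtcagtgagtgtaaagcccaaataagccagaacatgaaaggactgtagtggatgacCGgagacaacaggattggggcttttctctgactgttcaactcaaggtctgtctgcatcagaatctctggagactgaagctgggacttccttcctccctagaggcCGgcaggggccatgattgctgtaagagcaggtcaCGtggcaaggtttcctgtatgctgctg
Orc6: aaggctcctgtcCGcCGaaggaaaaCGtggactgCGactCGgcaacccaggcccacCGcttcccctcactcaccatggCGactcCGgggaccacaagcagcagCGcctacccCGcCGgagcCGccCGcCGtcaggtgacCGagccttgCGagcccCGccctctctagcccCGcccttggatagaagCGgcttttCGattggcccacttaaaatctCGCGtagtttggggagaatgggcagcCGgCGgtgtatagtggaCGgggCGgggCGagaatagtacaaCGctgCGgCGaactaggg
Hoxa13: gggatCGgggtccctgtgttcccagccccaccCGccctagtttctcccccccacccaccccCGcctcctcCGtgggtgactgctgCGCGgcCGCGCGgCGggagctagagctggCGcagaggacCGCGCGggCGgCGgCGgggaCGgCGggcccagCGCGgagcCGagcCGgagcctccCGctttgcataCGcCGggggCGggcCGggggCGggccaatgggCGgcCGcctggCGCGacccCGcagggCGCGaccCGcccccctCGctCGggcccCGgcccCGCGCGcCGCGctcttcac
Alb: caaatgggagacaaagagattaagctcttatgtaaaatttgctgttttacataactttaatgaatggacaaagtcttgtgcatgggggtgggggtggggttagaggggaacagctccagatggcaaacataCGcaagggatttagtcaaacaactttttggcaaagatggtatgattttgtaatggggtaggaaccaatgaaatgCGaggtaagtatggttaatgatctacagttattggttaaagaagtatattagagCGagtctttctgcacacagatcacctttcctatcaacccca

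In the second set the capitals mark CCGGAAGT, the core recognised by many Ets factors, because promoters that hold it were marked more often than others. Rpl31 (chr1:39367601-39367900, plus strand) holds 1 copy and Rps18 (chr17:33955616-33955915, minus strand) holds 2 copies, and both encode ribosomal proteins. A match describes the letters of the promoter and is not evidence of a bound factor.
Rpl31: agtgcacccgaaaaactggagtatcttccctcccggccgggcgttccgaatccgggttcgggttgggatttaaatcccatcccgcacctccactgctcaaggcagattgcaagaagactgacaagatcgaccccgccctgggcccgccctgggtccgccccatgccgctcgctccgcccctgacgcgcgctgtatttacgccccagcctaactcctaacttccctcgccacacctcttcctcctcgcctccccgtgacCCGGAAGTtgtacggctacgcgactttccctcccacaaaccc
Rps18: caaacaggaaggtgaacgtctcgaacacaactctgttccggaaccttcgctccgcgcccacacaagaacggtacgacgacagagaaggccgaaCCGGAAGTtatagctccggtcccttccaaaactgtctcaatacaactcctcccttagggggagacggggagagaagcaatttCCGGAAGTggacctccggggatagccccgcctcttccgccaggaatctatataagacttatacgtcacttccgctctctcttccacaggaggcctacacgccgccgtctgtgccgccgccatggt

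The label of the line was checked against markers of several cell types, which include genes of the lineage lists. Of 21 T-lineage markers, 17 were marked, beside 45.4% of all protein-coding genes outside the lists, and 7 were marked in the pre-B line. Cd3e, a signalling chain of the T cell receptor complex, had a peak of 41.5-fold enrichment over background. Gata3, which encodes a transcription factor needed for T cell commitment, reached 39.9-fold, and Thy1, a surface antigen of T cells, 38.6-fold. Tcf7 and Bcl11b, which encode factors of early T cell development, reached 36.0-fold and 33.2-fold. All of these defining markers were therefore marked in the line. The pre-T cell receptor chain gene Ptcra (16.6-fold), Il2ra (21.8-fold), which marks the DN2 and DN3 stages, and the recombinase genes Rag1 (16.5-fold) and Rag2 (8.20-fold) were marked too. The co-receptor genes Cd4, Cd8a and Cd8b1, which are silent at the double-negative stage, were unmarked, and so was Cd5, which had a peak of 9.50-fold in the pre-B line. Of the T-lineage markers, Cd3d, Lat, Lck, Notch1, Tcf7 and Zap70 also had a promoter peak in the pre-B line.

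Of 12 B-lineage markers only Vpreb1, a component of the surrogate light chain, was marked (29.9-fold, in a peak that also held the start site of Top3b), whereas 10 were marked in the pre-B line. The B cell factor genes Pax5 and Ebf1 and the antigen receptor genes Cd79a and Cd79b were unmarked. Among 12 markers of NK and innate lymphoid cells, 5 were marked (41.7%, 19.3% to 68.0%), close to the 45.4% of all genes. These were Nfil3 (33.7-fold), Gzma (28.9-fold), Rora (25.8-fold), Id2 (25.6-fold) and Tbx21 (22.3-fold), while Ncr1, Klrb1c, Klrk1, Eomes, Gzmb, Prf1 and Zbtb16 were unmarked. Gzma, a granule protease, and the transcription factor genes Rora and Tbx21 had no peak in the pre-B line. Of 12 myeloid markers, the 3 that were marked had low peaks, at 13.6-fold for the protease gene Prtn3, 7.09-fold for the factor gene Spi1 and 6.51-fold for the Fc receptor gene Fcgr3, and none of these peaks held the start site of the gene. Klf1 (18.6-fold) and Epor (8.84-fold) were the marked genes among 12 erythroid markers, both encode regulators of red cell formation, and the Klf1 peak did not hold the start site. The tallest peaks of Id2 and Notch1 did not hold the start site either. The cytoskeletal genes Acta2 (10.7-fold) and Tubb3 (12.4-fold) were the marked members among 10 stromal markers and 10 liver and neuron markers, and none of 10 epithelial markers was marked. Of 15 housekeeping genes 14 were marked, of which Actb (13.7-fold, 472 bp) and Eef1a1 (30.4-fold) had their tallest peak off the start site. Ywhaz, which encodes a 14-3-3 adaptor protein, was unmarked with its nearest peak 63954 bp away and a peak of 26.8-fold in the pre-B line.

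**Figure D1:**
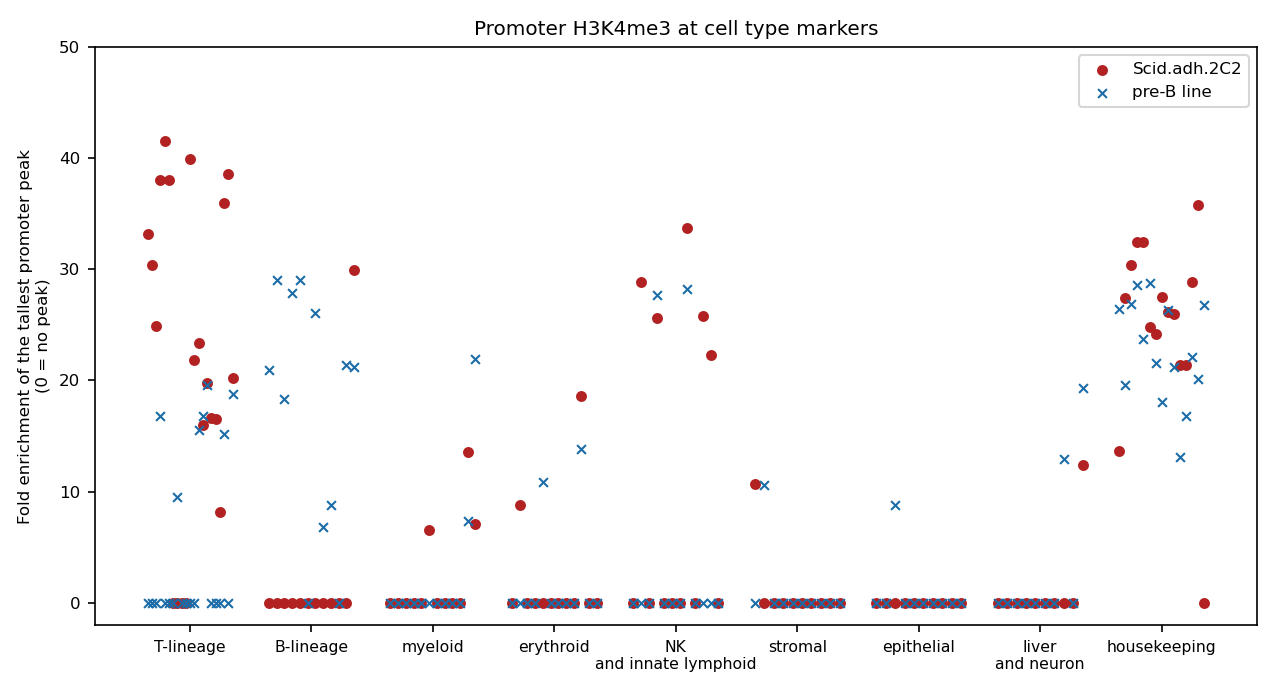
Fold enrichment over background of the tallest promoter peak (vertical axis) of each marker gene, grouped by cell type, with circles for Scid.adh.2C2 and crosses for the pre-B line and 0 for a gene without a peak. In Scid.adh.2C2, 17 of 21 T-lineage and 1 of 12 B-lineage markers lie above 0.

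The plot of marker genes shows that marked T-lineage genes spanned most of the range of heights, from 8.20-fold at Rag2 to 41.5-fold at Cd3e. Fold enrichment is the summit signal relative to the local background modelled with the input. Its level differs between the lists, so that values of both lines are set side by side only as a description.

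The 15 tallest promoter peaks outside the lineage lists ranged from 48.0-fold to 56.6-fold, where the median marked promoter had a tallest peak of 27.2-fold (quartiles 21.7 and 32.2). The highest value, 56.6-fold, was at Eif4ebp2 (chr10:61451286-61452890), whose product holds back cap-dependent translation by binding Eif4e. Next came Rnf135, a ubiquitin ligase gene, with 53.0-fold, and Epb41l4a, which encodes a protein with a FERM domain, with 52.7-fold in a peak that held no protein-coding start site. A peak between the divergent genes Cep63, for a centrosome protein, and Anapc13, for a subunit of the anaphase-promoting complex, reached 51.2-fold. Herpud1, a gene of the endoplasmic reticulum stress response, reached 50.6-fold and was the only 1 of the 15 without a pre-B peak. Idnk, for gluconokinase, and Pfn1, for the actin-binding protein profilin, had 49.7-fold each, and Mlec, for the glycan-binding protein malectin, had 49.5-fold. These genes thus have varied roles, and no shared function was tested.

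Cdca8, for the chromosomal passenger protein borealin, shared a peak of 49.0-fold with 9930104L06Rik, and Pygb, for a glycogen phosphorylase, had 48.7-fold. The zinc finger gene Zfp61 had 48.6-fold, 2010111I01Rik 48.3-fold and Gtf2i, for a general transcription factor, 48.1-fold. A divergent pair, the lipid transfer gene Cptp and the Integrator subunit gene Ints11, and the gene BC004004 had 48.0-fold each. Genes of the lineage lists had been left out of the ranking beforehand. The same genes had between 10.8-fold (BC004004) and 35.8-fold (Cptp and Ints11) in the pre-B line where they had a peak. The tall peaks more often had a reduced score in the reproducibility test, which runs from 540 to 1000 in the list. Of the 15 tallest, 8 were below the highest score, and of the 100 tallest 29 (29.0%, 21.0% to 38.5%), whereas 420 of all 10686 promoter peaks outside the lists were (3.93%, 3.58% to 4.32%). Herpud1 (score 572) and Eif4ebp2 (606) had the lowest scores among the 15, and they were the only members of the 15 that remained when peaks were ranked by −log10 q. The order at the top of the list thus rested on the measure of height.

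The 15 widest promoter peaks outside the lineage lists shared only 1 gene with the 15 tallest. They ranged from 6894 bp to 9565 bp, where the median over marked promoters of the widest peak was 2132 bp (quartiles 1642 and 2700). The widest, 9565 bp, lay at Nr3c1, which encodes the glucocorticoid receptor, and among promoter peaks only those of the listed markers Tcf7 (10029 bp) and Bcl11b (9793 bp) exceeded it. It had 24.1-fold at its summit, and the pre-B peaks that overlapped it were at most 2714 bp wide. The next, of 9343 bp (chr2:9870878-9880220), overlapped the promoter window of 4930412O13Rik without holding its start site and lies at Gata3, which is on the lineage lists. Setd1b (chr5:123136114-123145342), which encodes an H3K4 methyltransferase, had a peak of 9229 bp, and its counterpart in the pre-B line had 9192 bp. Nrarp (chr2:25175494-25184299) and Dtx1 (chr5:120706694-120715241), both known targets and modulators of Notch signalling, had peaks of 8806 bp and 8548 bp. In the pre-B line the Nrarp peak was 3983 bp wide and Dtx1 had none. Ikzf1 (chr11:11684697-11693105), for the lymphoid factor Ikaros, had 8409 bp, and the pre-B peaks that overlapped it were up to 6285 bp wide.

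Tnrc18, for a chromatin protein, had 8300 bp. Arid1a and Arid2, for subunits of SWI/SNF remodelling complexes, had 7957 bp and 7489 bp. The fatty acid desaturase gene Scd2 had 7297 bp, Tsc22d2 7272 bp, Zcchc2 7009 bp, Mlec 6950 bp, Inava 6920 bp and the divergent pair Rgs9bp and Ankrd27 6894 bp. Mlec was the only gene in both lists of 15. Inava, which encodes a regulator of innate immune signalling, had no peak in the pre-B line. Pre-B peaks covered 7859 bp of the Arid1a peak, 8150 bp of that of Tnrc18, 6927 bp of that of Zcchc2 and 7193 bp of that of Tsc22d2, so that these domains were shared almost in full. All 15 widest peaks had the highest reproducibility score of 1000. When peaks within 1000 bp of each other were merged, 4 of the 15 remained among the widest, and the leading domains were histone gene clusters on chromosome 13, of 16521 bp, 15002 bp and 13129 bp. After these followed Kdm6b, for an H3K27 demethylase (12579 bp), Rhoh, for a GTPase of blood cells (12206 bp), and Ikzf1 (11587 bp).

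**Figure D2:**
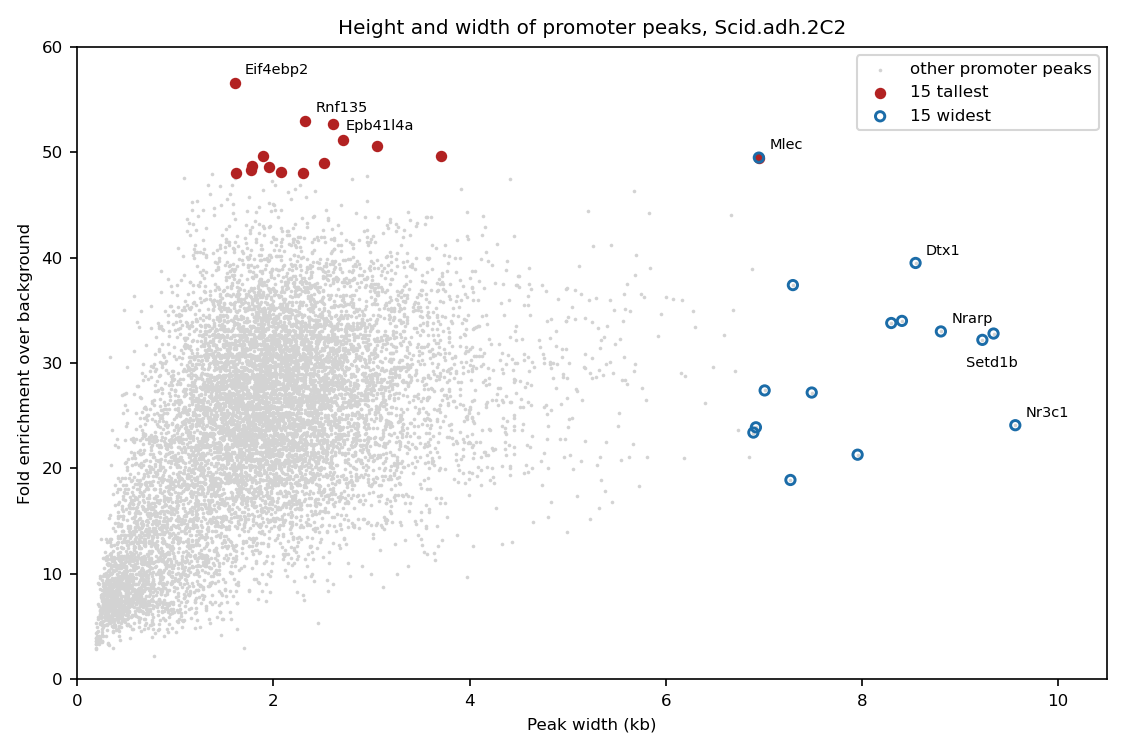
Fold enrichment over background (vertical axis) against width in kb (horizontal axis) of each of the 10686 promoter peaks outside the lineage lists in Scid.adh.2C2, with the 15 tallest filled and the 15 widest circled. Mlec is the only peak in both sets.

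As the plot of height against width shows, height and width rose together among narrow peaks and came apart among wide ones. Over 10961 promoter peaks of all protein-coding genes the rank correlation was 0.519 (Spearman), given as a description because peaks of 1 list are not independent replicates. The median height was 8.08-fold for 709 peaks under 500 bp, 13.3-fold from 500 bp to 1000 bp and 25.0-fold from 1000 bp to 2000 bp. Above that it changed little, with 27.5-fold from 2000 bp to 3000 bp, 28.6-fold from 3000 bp to 4000 bp, 28.8-fold from 4000 bp to 6000 bp and 32.2-fold for the 39 peaks of 6000 bp or more. The 15 tallest had a median width of 2300 bp and the 15 widest a median height of 32.2-fold. Of the 100 tallest peaks, 5 were also among the 100 widest. Across the 9109 genes marked in both lines the rank correlation between the lines was 0.642 for the widest peak and 0.276 for the tallest fold, so that width was the more similar property. A pre-B peak overlapped 97 of the 100 tallest (97.0%, 91.5% to 99.0%) and 88 of the 100 widest (88.0%, 80.2% to 93.0%), but 92.4% of both the 500 and the 1000 widest, where 89.0% of all promoter peaks outside the lists had one.

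The core machinery of the cell was marked almost throughout. Over 16 classes of genes for protein synthesis, RNA synthesis, replication, respiration and trafficking, 631 of 691 genes were marked (91.3%, 89.0% to 93.2%), with a median height of 29.3-fold, where the background share was 45.4%. All 8 genes of the CCT chaperonin, which folds actin and tubulin, and all 10 Fanconi anaemia genes, which serve DNA crosslink repair, were marked. Of the cytosolic ribosomal protein genes 75 of 77 were marked (97.4%, 91.0% to 99.3%), and of the mitochondrial ones 77 of 78 (98.7%, 93.1% to 99.8%). The ribosomal protein peaks were wide, with a median of 2957 bp against 1974 bp for the mitochondrial set. Shares above 90% were also found for aminoacyl-tRNA synthetases, subunits of Mediator, RNA polymerases, spliceosome, nuclear pore and proteasome, DNA replication factors and Vps sorting proteins. Translation initiation factors (46 of 55), E2 ubiquitin-conjugating enzymes (29 of 33) and respiratory chain subunits (76 of 86) were lower. Rab GTPases, many of which serve particular secretory cells, were lowest with 36 of 57 (63.2%, 50.2% to 74.5%).

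The tallest member of these classes was Eif4ebp2 (56.6-fold), described above. Among further protein synthesis genes, Rps18 had 45.4-fold, Rpl31 43.9-fold and Eif3k, a subunit of the initiation factor that binds the small ribosomal subunit, 43.7-fold. The mitochondrial ribosomal protein gene Mrpl18 and the chaperonin gene Tcp1 shared a divergent peak of 47.9-fold, and Mrpl34 had 44.3-fold. Tars2 (41.5-fold) and Mars2 (38.0-fold), the tallest synthetase genes, both serve mitochondrial translation. For RNA synthesis and processing, Polr2e had 46.4-fold, Polr1b 42.8-fold, Med10 42.6-fold, Sf3b6 43.8-fold and Prpf38b 42.5-fold. Proteasome genes were led by Psmb4 (42.0-fold) and Psmb10 (41.8-fold), an immunoproteasome subunit. Replication genes were lower as a class, with a median of 25.3-fold, and were led by the clamp loader gene Rfc1 (39.9-fold) and the origin gene Orc2 (37.6-fold). Respiratory chain genes were led by Ndufs4 (41.5-fold) and Ndufa7 (40.2-fold), and nucleoporin genes by Nup62 (37.1-fold) and Nup155 (36.5-fold). Among trafficking and ubiquitin genes, Vps52 shared the Rps18 peak, Vps29 had 41.8-fold, Rab1a 38.9-fold, Rab8b 38.0-fold, Ube2j1 33.1-fold and Ube2r2 32.7-fold. The Fanconi genes, with a median of 23.0-fold, were led by Fancd2 (35.9-fold) and Fance (34.9-fold).

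**Figure D3:**
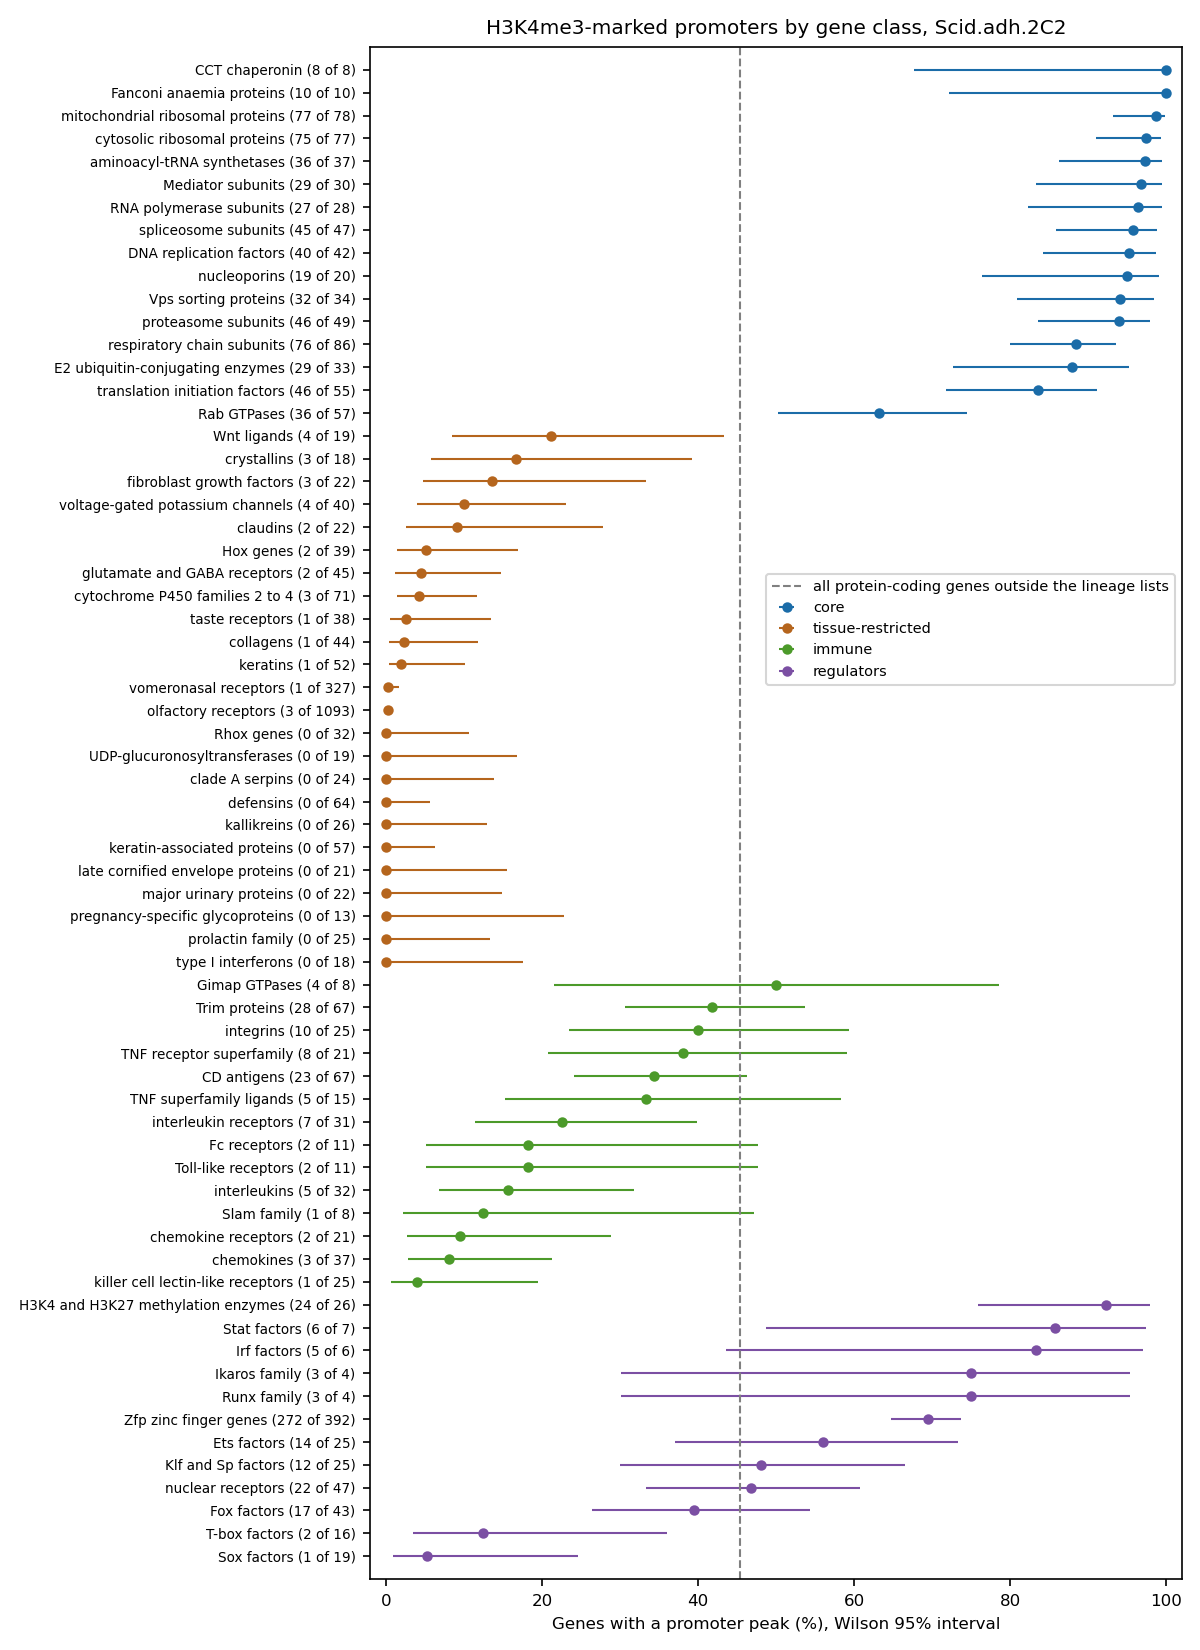
Share of genes with a promoter peak in Scid.adh.2C2 (horizontal axis, percent) for each class of the 4 blocks, with points for the share and bars for the Wilson 95% interval, and a dashed line at the 45.4% of all protein-coding genes outside the lineage lists. Core classes lie to the right of the line and tissue-restricted families to its left.

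The plot of marked shares by class places every core class above the line, with Rab GTPases nearest to it. Since genes of a class can share a peak or a bidirectional promoter, the intervals cover counting error only.

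Of the 60 core genes without a mark, 37 were unmarked in the pre-B line too. This group held paralogs known from other tissues, such as the testis proteasome gene Psma8, the thymic epithelial proteasome gene Psmb11, and Psme2b. It further held the cytochrome oxidase genes Cox4i2, Cox6b2 and Cox7b2, and with them Med12l and Nup210l. Mrps23, Snrpn, Eif3j2, Ube2d2b and Ube2u were also without a peak in either line, as was 1 of 2 annotated genes called Atp5o, whose namesake had 38.2-fold. The other 23 had a peak in the pre-B line, which is 38.3% of the 60 (27.1% to 51.0%), beside 1195 of all 11751 unmarked genes (10.2%). Over all genes, marked or not, those with a peak in the pre-B line only were 3.33% of the 691 core genes and 5.56% of all 21503. The 23 had a median height there of 23.4-fold, beside 22.6-fold for the 618 core genes marked in both lines. Their pre-B peaks ranged widely, from 9.15-fold at Rab42 to 32.7-fold at Cyc1.

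Named members of this group were Rps15, a protein of the small ribosomal subunit (22.2-fold in the pre-B line), Orc6, which helps to assemble replication origins, and its divergent neighbour Vps35 (25.8-fold each). The primase gene Prim1 (25.5-fold), the splicing gene Sf3a2 (24.2-fold), Polr1a, the largest subunit of RNA polymerase I (23.4-fold), and the synthetase gene Dars (18.6-fold) belonged to it too. So did the initiation factor genes Eif2b5 (24.4-fold) and Eif3d (23.0-fold), the Y-linked Eif2s3y (13.8-fold), Cox7a1 (9.86-fold), Vps37d (11.2-fold) and the ubiquitin genes Ube2l6 (26.7-fold) and Ube2q2 (19.9-fold). Cyc1, for cytochrome c1 (32.7-fold), and the helicase gene Eif4a2 (30.7-fold) had the tallest pre-B peaks among those needed in all cells, and were chosen after their values were seen. The reverse occurred at 13 core genes (1.88% of 691), which had a Scid.adh.2C2 peak and none in the pre-B line, beside 643 of all 21503 genes (2.99%). Among them, chosen in the same way, were Rps18 with Vps52 (45.4-fold), Vps29 (41.8-fold), Ndufb8 (33.7-fold), Cdc45, a replicative helicase component (31.4-fold), Rpl35 (31.2-fold) and Rpl41 (29.0-fold). Whether the genes without a peak had none in either replicate, or had one that was lost in the reproducibility step, was not tested, so that unmarked need not mean a weak promoter here.

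Families known from other tissues were almost without marks. Over 24 such families 30 of 2151 genes were marked (1.39%, 0.979% to 1.98%), with a median height of 15.8-fold. No peak was found at any of 57 keratin-associated, 21 late cornified envelope, 64 defensin, 22 major urinary, 24 clade A serpin, 19 UDP-glucuronosyltransferase, 25 prolactin, 13 pregnancy-specific glycoprotein, 26 kallikrein, 32 Rhox or 18 type I interferon genes. Of 1093 olfactory receptor genes 3 were marked (0.274%, 0.0934% to 0.804%), and of 327 vomeronasal receptor genes 1 was. Many of the 30 peaks did not lie at the start site of the family member. The tallest peak held a start site of the gene at 12 of the 30, and at 9 of these it held no start site of another protein-coding gene.

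Neighbouring genes were involved at several of the tallest peaks of these families. The peak of Olfr56 (28.9-fold) held the start site of the interferon-induced gene Ifi47 and not its own. The taste receptor gene Tas1r1 (35.6-fold) shared its peak, which held both start sites, with Nol9, which serves ribosomal RNA processing, and the vomeronasal gene Vmn1r4 (26.7-fold) did so with Nt5c3. The glutamate receptor gene Grin2d (34.5-fold) had a peak that held only the start site of Kdelr1, a receptor of the secretory pathway, Cldn6 (24.4-fold) one that held only that of Tnfrsf12a, and the growth factor gene Fgf20 (20.3-fold) shared its peak with Micu3. Grm4, the other marked receptor gene of this family, had 14.0-fold. Peaks of their own, holding the gene's start site and no other, were found at Kcna3 (31.3-fold), the main voltage-gated potassium channel of T cells, and at Wnt6 (31.0-fold). The crystallin gene Crygn (25.4-fold), the cytochrome P450 genes Cyp4f13 (24.7-fold), Cyp4f16 (20.3-fold) and Cyp4f37 (7.57-fold), the channel gene Kcnq5 (18.6-fold) and the keratin gene Krt10 (14.9-fold) were further members of these 9. Lower peaks without a start site inside lay at Olfr314 (10.8-fold), Olfr524 (9.37-fold), the fibroblast growth factor genes Fgf18 (11.9-fold) and Fgf11 (11.6-fold), Crybg2 (16.6-fold), Kcnh2 (16.6-fold), Cldn3 (5.84-fold) and the single marked collagen gene Col15a1 (8.36-fold). Of 39 Hox genes, which set position along the body axis, Hoxc6 (17.5-fold) and Hoxd12 (11.3-fold) had a peak in the window, and neither peak held a start site of the gene.

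Immune families outside the lineage lists were marked in part. In 14 families, 101 of 376 genes were marked (26.9%, 22.6% to 31.6%), below the background of 45.4%, and 129 were marked in the pre-B line. The tallest peak among the cytokine receptors was at Il15ra (37.7-fold), which presents interleukin 15, and then at Il17ra (34.4-fold). Il7r, for the receptor that early lymphocytes need for survival, had 20.1-fold and a width of 3444 bp, and Il2rg, for the common chain, 23.2-fold. Of 32 interleukin genes, Il16 (23.5-fold), Il17d (16.3-fold), Il13 (11.3-fold), Il4 (10.2-fold) and Il10 (10.0-fold) were marked. The peaks of Il17d, Il13 and Il10 did not hold the start site. Il13 and Il4, neighbouring type 2 cytokine genes, had no peak in the pre-B line. In all, 7 of 31 receptor genes were marked, the others being Il10rb (23.8-fold), Il27ra (17.2-fold) and Il9r (14.7-fold), so that receptor and cytokine genes overlapped in height.

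Chemokine genes were rarely marked, with Ccl25 (16.9-fold, 3187 bp, in a peak that also held the start site of Elavl1), Cxcl5 (7.05-fold, start site outside) and Cxcl10 (6.84-fold) among 37, and the receptor genes Ccr4 (13.3-fold) and Cxcr6 (6.87-fold, start site outside) among 21. Of 25 integrin genes 10 were marked, led by Itga4 (35.1-fold, 5581 bp), for the alpha chain of the VLA-4 adhesion receptor, and Itgb1 (32.3-fold), for its beta chain. Among CD antigens 23 of 67 were marked, with Cd24a, for a surface protein of immature lymphocytes, at 40.0-fold and the tetraspanin gene Cd151 at 38.1-fold. Ltb (27.9-fold, start site outside) and Tnfsf10 (22.0-fold) led the TNF ligands, and Tnfrsf9 (24.9-fold, in a peak shared with Park7) and Tnfrsf12a (24.4-fold) their receptors. Tlr6 (19.8-fold) and Tlr1 (7.73-fold) were the marked Toll-like receptor genes of 11, Klrb1f (13.9-fold) the marked killer lectin-like receptor gene of 25, and Fcgr3 and Fcer1g (6.40-fold), both with the start site outside the peak, the marked Fc receptor genes of 11. Trim genes, many of which encode ubiquitin ligases, were marked at 28 of 67, led by Trim27 (46.5-fold) and Trim39 (41.9-fold).

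A pair of small lymphocyte families, chosen after their values were seen, had fewer marked genes in Scid.adh.2C2 than in the pre-B line, where the shares of all genes were 45.4% and 47.9%. Of 8 Gimap genes, which encode GTPases of lymphocyte survival, Gimap9 (27.6-fold), Gimap7 (7.81-fold), Gimap8 (7.05-fold) and Gimap6 (6.23-fold) were marked, whereas all 8 were in the pre-B line. Of 8 Slam family genes, which encode receptors for contacts among blood cells, only Ly9 (26.9-fold) was marked, against 7 in the pre-B line. Many genes of each family lie close to each other, so that they are not independent, and the difference between the lines was not tested.

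Genes for regulators of transcription differed by family. Over 12 families 381 of 614 were marked (62.1%, 58.2% to 65.8%). Enzymes that write or erase H3K4 and H3K27 methylation were marked at 24 of 26 (92.3%, 75.9% to 97.9%), led by Kmt2a (40.3-fold) and Kmt2e (38.4-fold), and the exceptions were the demethylase gene Kdm5b and Men1, for the menin subunit of MLL complexes. Neither had a peak in the pre-B line. Zfp zinc finger genes were marked at 272 of 392 (69.4%, 64.7% to 73.7%), led by Zfp61 (48.6-fold) and Zfp428 (44.0-fold). Developmental families were low. Of 19 Sox genes only Sox4 was marked (30.5-fold, 5253 bp), which serves lymphocyte development, and of 16 T-box genes Tbx21 (22.3-fold) and Tbx1 (11.8-fold).

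Families with members of known roles in lymphocytes are small, and the intervals of the Ikaros, Runx, Irf, Ets, Klf and Sp families all include the background of 45.4%. Ikzf5 (40.7-fold), Ikzf1 (34.0-fold) and Ikzf2 (28.4-fold) were marked among the Ikaros genes outside the lists, and Ikzf4 was not. Among Runx family genes, Cbfb (33.6-fold), Runx1 (29.6-fold) and Runx3 (18.3-fold) were marked and Runx2 was not. Of 7 Stat genes 6 were marked, led by Stat3 (36.7-fold), without Stat4. Of 6 Irf genes 5 were marked, led by Irf1 (29.0-fold) and Irf9 (28.5-fold). Ets factor genes were marked at 14 of 25, with Ets2 (40.2-fold) and Gabpa (40.0-fold) tallest, and Klf and Sp genes at 12 of 25, with Sp4 (35.1-fold) and Klf11 (34.0-fold) tallest. Nuclear receptor genes (22 of 47, led by Nr1h2 at 40.7-fold and Thra at 39.7-fold) and Fox genes (17 of 43, led by Foxp4 at 38.1-fold and Foxd2 at 36.7-fold) lay close to the background of 45.4%.

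Marked transcription factor genes were often wide. Of 85 marked genes in the factor families other than Zfp, 24 were among the 1000 genes with the widest peaks (28.2%, 19.8% to 38.6%), beside 10.3% of all marked genes. Of the marked Zfp genes 14 of 272 were (5.15%, 3.09% to 8.45%), and of the core genes 72 of 631 (11.4%, 9.16% to 14.1%). For height the shares were closer together, with 14.1% of the factor genes, 9.19% of the Zfp genes and 14.3% of the core genes among the 1000 tallest. Besides Nr3c1 and Ikzf1, wide peaks lay at Runx1 (6484 bp), the retinoic acid receptor gene Rara (5814 bp), Nr2f2 (5749 bp), Sp3 (5570 bp), Ikzf2 (5558 bp), Foxo3 (5221 bp) and Elf1 (5176 bp), named after their values were seen. Nr2f2, an orphan receptor gene, Ikzf2, for the factor Helios, and Foxb1 (4886 bp) had no peak in the pre-B line, whereas Rara was wider there (9567 bp).

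Marking followed the CpG content of the promoter. CpG content was measured as the observed over the expected number of CG dinucleotides from 250 bp before to 50 bp after the most upstream TSS. CpG-rich promoters, with a ratio of at least 0.6 and at least 50% G and C, were marked at 6543 of 8883 genes (73.7%, 72.7% to 74.6%), and CpG-poor ones, with a ratio under 0.3, at 989 of 7237 (13.7%, 12.9% to 14.5%). The share rose from 7.77% below a ratio of 0.1 to 82.9% at 1.0 or above. Marked promoters had a median of 20 CG and unmarked ones of 5. The height of the marked promoters moved far less, with medians of 24.0-fold in the lowest class of CpG content and 28.5-fold in the highest. CpG content thus went with whether a promoter had a peak more than with how tall it was.

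**Figure D4:**
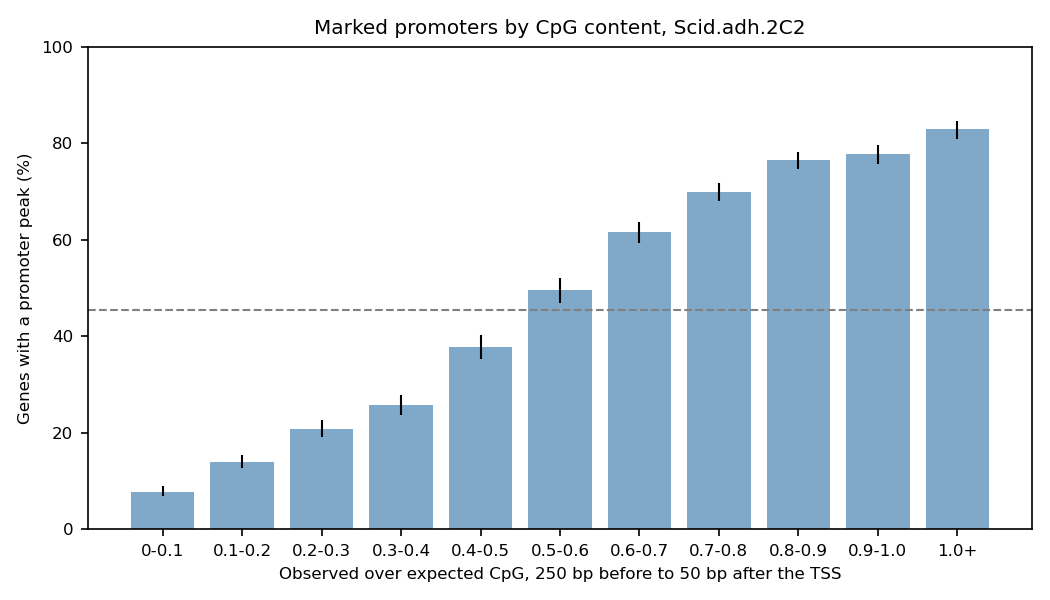
Share of genes with a promoter peak in Scid.adh.2C2 (vertical axis, percent) by the observed over expected CpG of the promoter (horizontal axis), with bars for the share, lines for the Wilson 95% interval and a dashed line at 45.4%. The share rises in every step, from 7.77% to 82.9%.

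The plot by CpG content describes all genes, and the functional classes departed from it in both directions. Of the core genes with CpG-rich promoters 460 of 484 were marked (95%), but of the CpG-rich tissue-restricted genes 11 of 99 (11.1%). None of 19 Hox genes and none of 20 glutamate and GABA receptor genes with CpG-rich promoters was marked, nor were 11 of 12 such Sox genes. Hoxa13, with the 45 CG printed above, is an example of a dense CpG promoter without a peak in this line. Of the 2340 CpG-rich unmarked genes, 510 were marked in the pre-B line (21.8%), beside 1195 of all 11751 unmarked genes (10.2%). Among the 60 unmarked core genes 24 were CpG-rich, such as Orc6, and 15 of these 24 had a peak in the pre-B line.

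In the other direction, some genes were marked with few CG. Of the 21 T-lineage markers 13 had CpG-poor promoters, and 10 of the 13 were marked, beside 13.7% of all CpG-poor genes. The share was as high among CpG-poor core genes, of which 36 of 46 were marked, and 45 of 103 CpG-poor regulator genes were marked. Of the other CpG-poor genes, 0 of 7 B-lineage markers, 1 of 6 NK and innate lymphoid markers and 40 of 200 immune family genes were marked. By this measure marking with few CG was thus not particular to T-lineage genes, and the differences were not tested. Sash3, for a signalling adaptor of lymphocytes, had 3 CG and a peak of 29.9-fold and 4367 bp, where Alb, the serum albumin gene of the liver, had the same number of CG and no peak. Further CpG-poor genes with a start site inside the peak, chosen after their values were seen, were the integrin gene Itgb2 (30.6-fold), the kindlin gene Fermt3 (27.9-fold), which serves integrin activation, Apbb1ip (33.7-fold), which couples Rap1 to integrins, and Il7r. The ribonucleoprotein gene Snrpg (30.1-fold) and the kinase gene Nme2 (42.2-fold) were CpG-poor by this measure as well. The measure depends on which TSS is annotated as the most upstream, whereas a peak at any TSS of a gene counted as a mark. A peak can therefore lie at another start site with more CG. Of the 989 marked CpG-poor genes outside the lineage lists, 101 had all TSSs within 500 bp and the most upstream one inside a peak. With only the most upstream TSS the CpG-poor share was 9.77% in place of 13.7%. This was not counted for core genes or T-lineage markers alone.

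Sequence motifs were searched on both strands in the same 300 bp, and TATAAA only from 40 bp to 15 bp before the TSS. None of the motifs contains another. The Ets motif CCGGAAGT, shown for Rpl31 and Rps18, was present in 4.77% of all promoters, of which 87.3% were marked, against 43.3% of those without it. The shares were 93.4% and 71.7% within CpG-rich promoters, and 25.0% and 13.6% within CpG-poor ones, of which only 28 held it. The motif was found in 9 of 37 aminoacyl-tRNA synthetase promoters (24.3%), 9 of 42 replication factor promoters (21.4%) and 13 of 77 ribosomal protein promoters (16.9%). The highest share of any class was in the Rhox homeobox genes, with 8 of 32 (25.0%), none of which was marked, so that the motif was not confined to marked classes. The TATA box went the other way. TATAAA was present in 2.80% of promoters, of which 12.8% were marked, against 46.3% of those without it, with 47.1% and 73.9% within CpG-rich and 4.10% and 14.2% within CpG-poor promoters. It was found in 32 of 57 keratin-associated (56.1%) and 16 of 52 keratin promoters (30.8%), families with 0 and 1 marked genes.

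The other motifs went with marking to different degrees. The Nrf1 motif GCGCATGC was present in 3.75% of promoters, of which 71.8% were marked (44.4% without it), the CRE TGACGTCA in 2.44%, of which 68.1% were marked (44.8% without it), and the E-box CACGTG in 7.79%, of which 61.7% were marked (44.0% without it). Within CpG-rich promoters the shares with and without the motif were 84.6% and 72.9% for Nrf1, 83.1% and 73.3% for the CRE and only 75.6% and 73.4% for the E-box. Within CpG-poor promoters they were 17.6% and 13.7% for Nrf1, 0 of 57 promoters and 13.8% for the CRE, and 18.6% and 13.5% for the E-box. The GC box GGGCGG was present in 42.9% and 64.9% of these were marked, against 30.7% without it, but within CpG-rich promoters the shares were 73.3% and 74.9%, and within CpG-poor ones 23.6% and 12.9%. For the CCAAT box (CCAAT, 39.1% of promoters) 46.6% were marked with it and 44.6% without it, with 78.3% and 70.9% within CpG-rich and 11.9% and 14.8% within CpG-poor promoters. Motifs of factors of T cell development were less frequent at marked promoters. The Runx core TGTGGT was present in 15.2% of promoters, of which 38.0% were marked (46.7% without it), and the Gata motif AGATAA in 10.2%, of which 29.8% were marked (47.2% without it). Within CpG-rich promoters these contrasts were small and turned the other way, with 76.7% against 73.3% for Runx and 75.6% against 73.6% for Gata. Within CpG-poor promoters the shares were 14.5% and 13.4% for Runx, and 10.9% and 14.2% for Gata, so that only the Gata contrast kept its direction there.

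The mark lay mostly downstream of the start site. The summit was measured for 1617 genes whose TSSs fell within 500 bp and whose tallest peak overlapped no other protein-coding promoter. The median summit was 200 bp downstream of the nearest TSS (quartiles 54 bp and 456 bp), and 1273 summits were downstream (78.7%, 76.7% to 80.7%). The peak contained the TSS at 1468 of these genes (90.8%, 89.3% to 92.1%), and of these 1251 reached farther into the gene than away from it (85.2%, 83.3% to 86.9%). The median reach was 682 bp upstream and 1240 bp downstream. For 46 peaks of 4000 bp or more it was 1598 bp and 3107 bp, so that wide domains extended in both directions and farther into the gene.

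**Figure D5:**
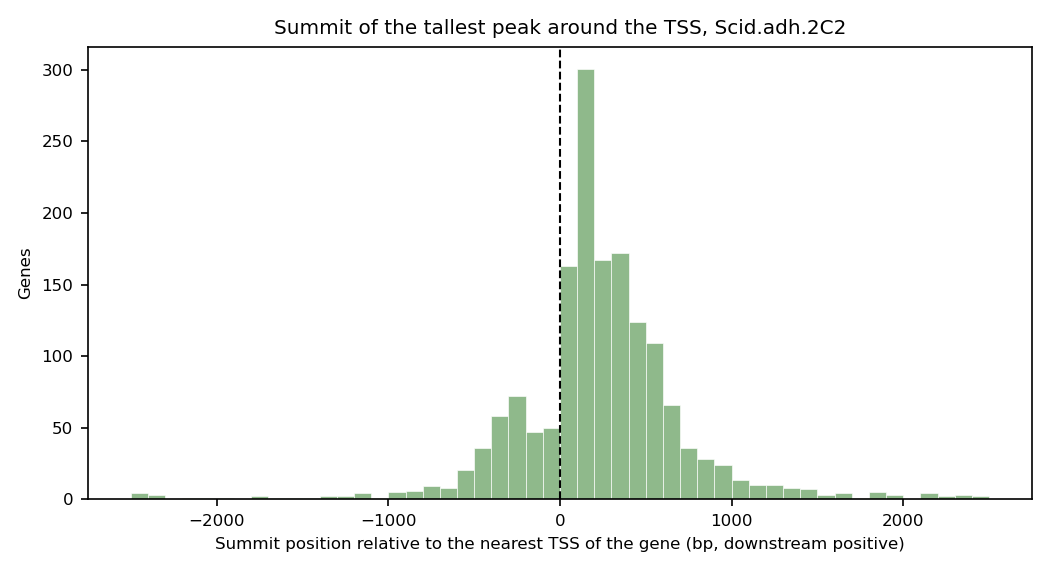
Number of genes (vertical axis) by the position of the summit of their tallest peak relative to the nearest TSS (horizontal axis, bp, downstream positive) for 1617 Scid.adh.2C2 genes, in bins of 100 bp. Most summits lie to the right of 0, with a median of 200 bp.

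The histogram of summit positions has a main mass just downstream of the TSS and a smaller one upstream. Peaks at divergent pairs, with start sites on opposite strands within 1000 bp, had a median width of 2274 bp and height of 27-fold (795 peaks), against 1800 bp and 24.1-fold for 9045 peaks at 1 protein-coding gene. Of the marked genes, 7249 had 1 peak in their windows and 2140 had 2. The most, 8 peaks, lay at Cic, a repressor gene with 14 annotated TSSs, followed by Nol4l and Atf7ip with 6 each, named after their values were seen.

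Marked genes were spread unevenly over the chromosomes. The share was 55.0% on chromosome 12 (51.0% to 58.8%), 54.0% on chromosome 8 and 53.9% on chromosome 11, and 36.2% on chromosome 14 (33.1% to 39.4%) and 29.6% on the X chromosome (26.7% to 32.6%). It was lowest on the Y chromosome, where 2 of 183 genes were marked (1.09%) and the list held 4 peaks in all. Whether the clone carries this chromosome, and whether reads can be mapped to its genes, was not tested, so that this share need not describe promoters. On chromosome 7 the share was 38.1%, and 47.6% without the olfactory, vomeronasal and taste receptor genes, whereas on the X chromosome it was 29.8% without them. The longest run of neighbouring marked genes was the 30 from Hist1h4h to Hist1h1a, a histone gene cluster of chromosome 13, and the next the 26 from Tars2 to Hist2h2bb on chromosome 3, which also ends in histone genes. The longest unmarked run was the 238 genes from Tnks1bp1 to Ptprj on chromosome 2, of which 227 were olfactory receptor genes, over 5.53 Mb. The next unmarked run was the 178 genes from Ddx3y to Gm21748 on the Y chromosome, to which the limit given for that chromosome applies. After it came 106 genes from Igsf23 to Vmn1r183 on chromosome 7, of which 65 were vomeronasal receptor genes, 103 from Olfr550 to Trim6 on the same chromosome, with 89 olfactory receptor genes, and 100 from Gm2888 to Gm26661 on chromosome 14, without receptor genes of either family. Shorter ones, chosen after their values were seen, were the 64 genes from the defensin gene Defb40 to Ccdc70 on chromosome 8 and the 61 genes from Krt12 to Krt42, both keratin genes, on chromosome 11.

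Of the 15513 peaks, 10961 lay at a protein-coding promoter (70.7%, 69.9% to 71.4%), and these had a median of 24.6-fold and 1855 bp. The others were lower and narrower, with medians of 9.50-fold and 845 bp. Of all peaks, 14.1% lay between genes, 9.89% inside a protein-coding gene away from its promoters, 3.76% at a promoter of a long non-coding RNA and 1.59% at other genes. The peaks at protein-coding promoters were overlapped by a pre-B peak in 88.3% of cases, those at long non-coding RNA promoters in 59.6%, those between genes in 40.9% and those inside genes in 32.9%. Overlap between the lists was thus highest at protein-coding promoters and lowest inside genes, and the part that the lower height of the other peaks has in this was not tested.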

How the data were processed

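H3K4me3 ChIP-seq of Scid.adh.2C2 and an Abelson-transformed pre-B line was used (2 ChIP libraries and 1 input library each). The authors trimmed reads with Trim Galore 0.6.7, mapped them to GRCm38 with Bowtie2 2.4.4 and called narrow peaks with MACS2 2.2.7.1 against the input at q 0.05, and the combined optimal set at an irreproducible discovery rate (IDR) of 0.05 was deposited. The score of each peak is the authors' scaled IDR. The fold, a ratio over local background, and the −log10 p and −log10 q are deposited values of their peak caller. No counts and no values per replicate are held, so that neither depth nor spread between replicates is known and no test was made. Wilson 95% intervals cover counting error only.

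TSSs came from GENCODE vM21, and a 1 bp overlap with a promoter counted. Of the study's lineage lists, 229 of 233 T-lineage and 247 of 253 B-lineage symbols were found. Base composition came from the GRCm38.p6 genome. Classes were defined by symbol patterns, of which 3 were corrected after counts were seen (Il9r, Il7r, Il23r, Il21r, Il1rn, Rab3ip and Rab5if were taken out of a wrong class). The members and lists were chosen with earlier results of these data known. Named genes were the 15 tallest and 15 widest promoter peaks, the 2 tallest members of each class, up to 4 unmarked members (alphabetical) of classes at least 80% marked, up to 4 marked members of classes at most 20% marked, markers and the printed promoters. Not every gene under these rules is named. Others are given as chosen after their values were seen. Alternatives were other windows, thresholds, TSSs, rankings and merging. The code ran under Python 3.11.15 with scipy 1.17.1, matplotlib 3.10.9, pandas 2.3.3 and numpy 2.4.6, and its functions were tested on simulated data. Other assays of the study were not analysed here.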

Additional observations from a re-analysis of the deposited data

How the results depend on the processing

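Values that left their interval, or counts that changed, are given here by setting. With a window of 1000 bp the share of marked protein-coding promoters was 44.3%, of tissue-restricted families 0.930% and of CpG-poor promoters 12.1%, and the median width of promoter peaks was 1904 bp. With 5000 bp the shares were 47.2%, 2.05% and 16.3%, and that of CpG-rich promoters 74.6%. With peaks of at least 10-fold enrichment they were 44.1% for all, 0.976% for tissue-restricted, 22.1% for immune, 72.5% for CpG-rich and 12.3% for CpG-poor promoters. With an IDR score of 1000 they were 44.3% for all, 88.3% for core and 72.2% for CpG-rich promoters, and 7 of the 15 tallest peaks remained. With only the most upstream TSS of a gene they were 42.7% for all, 88.9% for core, 0.930% for tissue-restricted, 72.1% for CpG-rich and 9.77% for CpG-poor promoters. The CpG-poor share was 12.8% with the summit inside the window and 11.5% with CpG counted 500 bp either side of the TSS. Merging peaks within 1000 bp gave a median width of 2190 bp and kept 4 of the 15 widest, and ranking by −log10 q kept 2 of the 15 tallest. Of the alternatives, 22 values stayed within their interval. Class patterns as first written, an alternative chosen after seeing the data, gave 91.3% for core and 26.8% for immune families. With other windows, fold or IDR thresholds, the summit rule and the most upstream TSS, the core share was above, and the tissue-restricted and immune shares below, that of all promoters.

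No paired analysis was possible because each line has 1 combined list without values per replicate, and for the same reason no replicate was left out. Depth is unknown, and a promoter just under the thresholds is counted like one without the mark. Genes that share peaks, neighbouring genes and paralogs are not independent, so that intervals are too narrow. Scid.adh.2C2 is 1 tumour-derived clone, and no difference from the pre-B line is separated here from differences between clones or libraries.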
